A study of Mus musculus with 53 samples.

Results

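The genes described here carry symbols of nuclear-encoded subunits of respiratory complexes II to V in the mouse heart, 51 of the 34306 genes in the deposited table. They were taken by symbol, from the Sdh subunits a to d, the symbols that begin with Uqcr, Cox4 to Cox8 or Atp5, and the genes Cyc1 and Cycs, and 1 pseudogene row was left out. Complex II had 4 of them, complex III 9, complex IV 18 and complex V 18, and the electron carrier cytochrome c (Cycs) made 1. The remaining gene, Cox4nb, shares only its symbol with cytochrome oxidase and encodes a protein of the endoplasmic reticulum membrane. It came in through the naming rule and is counted with the others. Some rows counted in complexes IV and V by symbol are not plain subunits either. They are Cox7a2l (a supercomplex assembly factor), Atp5l2 (a copy of subunit g), Atp5s (factor B) and Atp5sl (a gene related to Atp5s).

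Messenger RNA was sequenced from adult mouse hearts in a pair of fractions, an input of total cytoplasmic RNA and the RNA recovered by translating ribosome affinity purification (TRAP), in which ribosomes with a tagged protein are pulled down with the RNA they carry. The tag is switched on by Cre recombinase, in all lineages in CAG hearts and in endothelial cells in Tie2 hearts, as labels of the series describe these lines. From CAG hearts there were 2 input and 2 TRAP libraries for sham surgery, the same number for banding, in which a ligature narrows the ascending aorta of male mice, and 1 of each fraction without surgery. Tie2 hearts gave 1 input and 1 TRAP library without surgery. RNA was pooled before library preparation and the labels do not tie libraries to separate mice. Each p-value therefore reflects only how far libraries of the same group lay apart, which may be technical. This spread was estimated for each gene over all groups with 2 libraries together, so a wide pair in any group enters the p-values of the others. The 12 libraries held 26568988 to 94878619 reads each.

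The respiratory chain moves electrons from succinate (through complex II) and ubiquinol (through complex III and cytochrome c) to oxygen at complex IV, and complex V, the ATP synthase, uses the proton gradient this builds. Complex II is wholly nuclear-encoded, whereas complexes III, IV and V combine nuclear subunits, made on cytosolic ribosomes and imported, with a few subunits made inside mitochondria. Several complex IV subunits exist as tissue isoforms: Cox6a2, Cox7a1 and Cox8b in heart and skeletal muscle, and Cox6a1, Cox7a2 and Cox8a, often called the liver forms, in most other tissues.

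The isoform genes of complex IV carried the widest contrasts between the lines, so the sequence just before their starts is shown. RefSeq promoter windows (GRCm38.p6), from 250 bases before to 50 bases after each start, were found for 38 of the 51 genes. The 250 bases before the start are printed for 3 liver or ubiquitous forms (Cox6a1, Cox8a, Cox7a2) and 2 muscle forms (Cox8b, Cox7a1), 5′ to 3′ on the strand of the gene. Capitals mark matches to the motifs named below that lie wholly within these 250 bases. Matches that cross or follow the start are not marked.
Cox6a1: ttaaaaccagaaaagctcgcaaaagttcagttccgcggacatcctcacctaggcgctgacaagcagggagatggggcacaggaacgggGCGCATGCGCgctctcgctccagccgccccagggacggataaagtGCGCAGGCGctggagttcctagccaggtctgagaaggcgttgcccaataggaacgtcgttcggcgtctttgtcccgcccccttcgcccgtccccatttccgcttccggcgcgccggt
Cox8a: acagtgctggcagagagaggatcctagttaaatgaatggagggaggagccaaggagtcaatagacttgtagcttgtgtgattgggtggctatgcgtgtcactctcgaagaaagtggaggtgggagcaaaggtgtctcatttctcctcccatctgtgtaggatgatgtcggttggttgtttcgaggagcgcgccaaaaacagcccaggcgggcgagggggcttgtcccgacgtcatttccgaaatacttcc
Cox7a2: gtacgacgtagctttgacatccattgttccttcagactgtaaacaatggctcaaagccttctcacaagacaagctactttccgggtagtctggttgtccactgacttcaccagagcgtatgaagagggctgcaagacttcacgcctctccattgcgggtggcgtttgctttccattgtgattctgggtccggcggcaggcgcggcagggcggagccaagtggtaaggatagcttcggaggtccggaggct
Cox8b: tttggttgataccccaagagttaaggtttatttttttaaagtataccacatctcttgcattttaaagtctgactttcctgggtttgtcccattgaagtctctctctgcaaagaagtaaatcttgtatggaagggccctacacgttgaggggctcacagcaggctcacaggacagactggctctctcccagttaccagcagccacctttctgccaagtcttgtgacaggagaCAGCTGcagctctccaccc
Cox7a1: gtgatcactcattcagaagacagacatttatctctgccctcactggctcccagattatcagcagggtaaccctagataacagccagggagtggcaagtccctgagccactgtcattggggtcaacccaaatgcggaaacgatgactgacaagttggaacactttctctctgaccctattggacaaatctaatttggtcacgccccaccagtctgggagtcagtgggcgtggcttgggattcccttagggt
These stretches lie at chr5:115348959-115349208 (minus strand) for Cox6a1, chr19:7217617-7217866 (minus) for Cox8a, chr9:79759854-79760103 (minus) for Cox7a2, chr7:140900447-140900696 (minus) for Cox8b and chr7:30183921-30184170 (plus) for Cox7a1. CpG dinucleotides numbered 26 in Cox6a1, 14 in Cox7a2 and 11 in Cox8a, against 4 in Cox7a1 and 1 in Cox8b. The GC content of the same stretches was 62.8% in Cox6a1, 54.8% in Cox7a2, 52.8% in Cox8a, 51.2% in Cox7a1 and 47.2% in Cox8b. The 3 liver or ubiquitous forms thus had more CpG dinucleotides than either muscle form.

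Motifs were searched on both strands of the whole windows. The core GCGCANGCG, bound by nuclear respiratory factor 1 (NRF1, a known activator of respiratory chain genes), was present in 13 of the 42 windows of these genes (30.95%) and in 2053 of all 32851 windows (6.249%). Cox6a1 had 3 matches, of which those beginning 162 and 161 bases before the start overlap in 1 run of capitals and the other begins 117 bases before it. The ETS-family core CCGGAAGT was found in 9.52% of the member windows and 3.89% of all windows, and the TATAAA core in 7.14% and 13.6%. The muscle E-box CAGCTG was found in 4.76% and 16.3%, with 1 of its matches 19 bases before the start of Cox8b. The whole window of Cox8a held 2 ETS matches, and that of Cox8b 2 E-box matches and 1 TATAAA match. Of these only the E-box match at 19 bases lies wholly within the printed stretches. A match is a run of letters and does not show a bound site. The median window held 19 CpG dinucleotides among these genes and 7 among all windows.

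Levels are given as RPKM (reads divided by transcript length and by the reads of the library). The length is that of 1 listed transcript per gene, from 362 to 4933 bases among the 51, so comparisons between genes depend on the transcript listed. Of the 51 genes, 49 reached 1 RPKM in at least 2 libraries and were tested. The others were Cox7b2, at 0 to 0.43 RPKM, and Cox8c, at 0 in all 12 libraries, both isoforms known from testis. Averaged over the libraries, complex IV ranged from 34654 RPKM for Cox7a1 to 9.31 for Cox6b2, a further isoform known from testis. Complex V ranged from 16331 for Atp5k (subunit e) to 7.12 for Atp5s (coupling factor B), complex III from 7934 for Uqcr11 to 190 for Uqcrb, both small subunits, and complex II from 1189 for Sdhb, the iron-sulfur subunit, to 199 for Sdha, the flavoprotein. Subunits of a single complex thus differed widely in RPKM, and 14 of the 51 were among the 50 genes with the highest mean RPKM. Together they took 10.3% to 11.5% of the reads of CAG input, 16.7% to 19.8% of CAG TRAP, 13.9% of Tie2 input and 2.30% of Tie2 TRAP.

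The first comparison asked which of these messengers made up a larger share of ribosome-bound than of input RNA in CAG hearts. After sham surgery 33 of the 49 tested genes were higher in TRAP and 0 were lower by limma at an adjusted p under 0.05, and 0 were lower at an unadjusted p under 0.05. Of all 11654 genes tested, 15.1% were higher and 24.5% lower. After banding 34 were higher and 0 lower, against 16.6% and 26% of all genes, again with 0 lower at an unadjusted p under 0.05. The median difference was 0.58 on the log2(RPKM + 1) scale after sham and 0.59 after banding, where the median of all genes was -0.09 and -0.10. In 30 of the 49 genes all 5 CAG TRAP libraries, those without surgery included, lay above all 5 CAG input libraries, against 10.9% of all genes.

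By complex, the genes higher in TRAP numbered 3 of 4 in complex II after sham and 2 after banding, 6 of 9 in complex III in both, 15 and 14 of 16 in complex IV, and 9 and 11 of 18 in complex V. The median log2 difference after sham was 0.77 in complex IV, 0.66 in complex III, 0.48 in complex II and 0.46 in complex V. After banding the medians were 0.85, 0.57, 0.38 and 0.48. Differences between complexes were not tested. The genes called in both comparisons numbered 29, and 11 were called in neither.

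**Figure D1:**
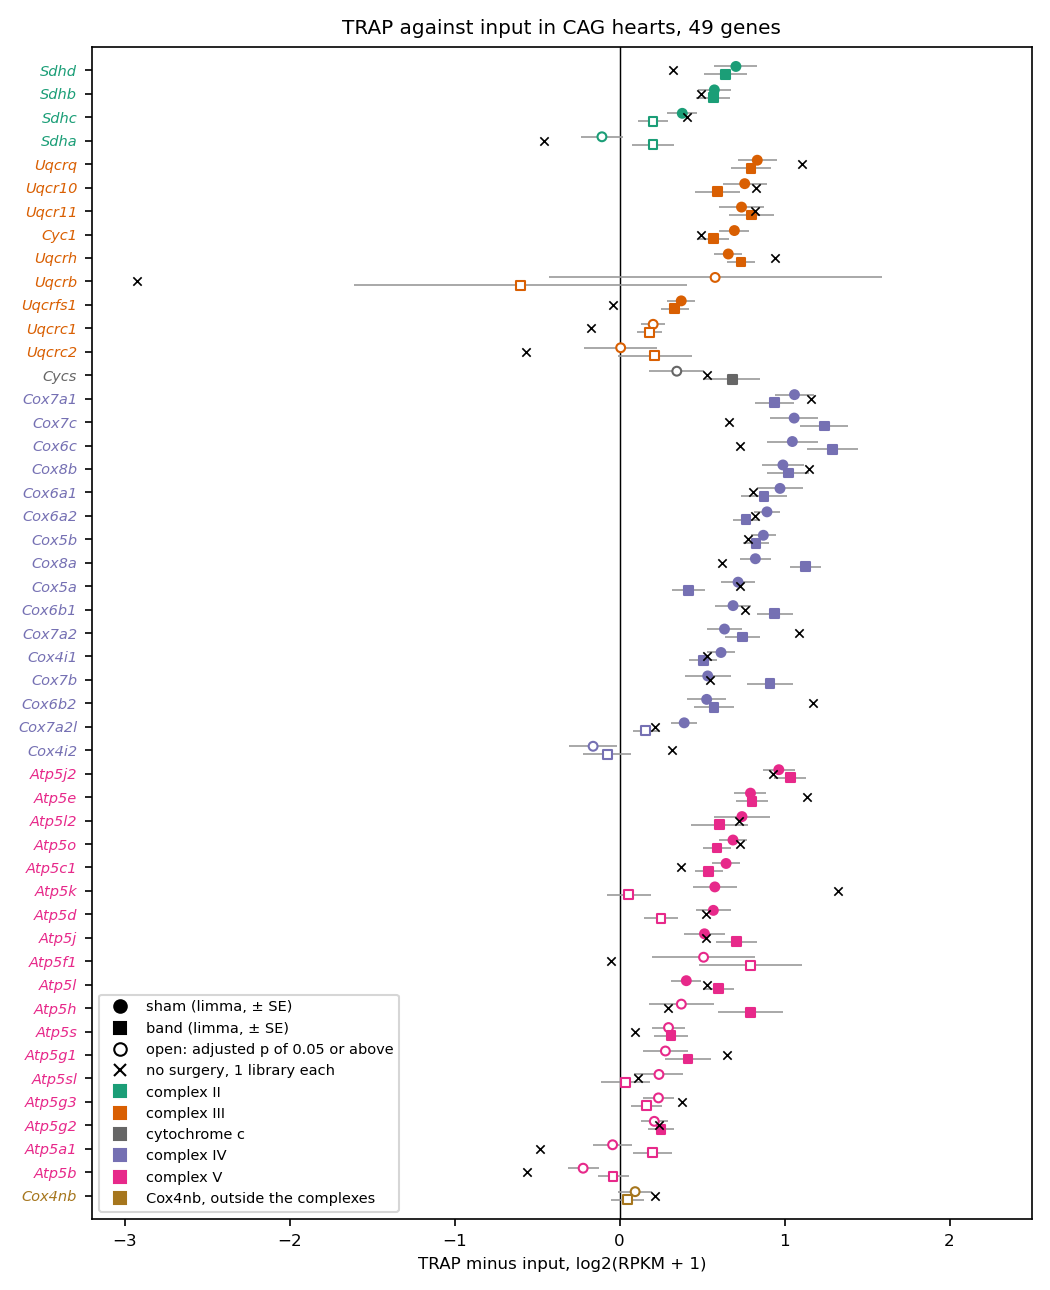
Difference between TRAP and input in CAG hearts on the log2(RPKM + 1) scale for the 49 genes tested, sorted by complex. Circles (sham) and squares (band) are limma estimates from 2 against 2 libraries with standard errors, filled where the adjusted p is under 0.05, and crosses are single libraries without surgery. Filled symbols all lie to the right of 0, 33 of them circles and 34 squares, and Uqcrb has the widest error.

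Complex IV held the top of this order. Cox7a1, the muscle form of subunit 7a, had 28832 and 28775 RPKM in the sham inputs, and sham TRAP held 61089 and 59038. The difference was 1.06 ± 0.12 (log2, SE), with an adjusted p of 0.00121. The call was lost under quantile normalization, with 0 after sham and 0.28 after banding (limma adjusted p = 0.215). That method gives the same rank the same value in every library. Cox7a1 ranked 1 by mean RPKM, so its 0 after sham reflects an unchanged rank and is no test of its level. Cox7c, a small subunit without a muscle form, had 3968 and 5141 RPKM in input and 9604 and 9213 in TRAP, a difference of 1.06 ± 0.14 with an adjusted p of 0.00234. For both genes the TRAP libraries lay far above the spread of the input pair, though the input libraries of Cox7c differed more than those of Cox7a1.

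Cox6c, another small subunit, had 1489 and 1930 RPKM in sham input and 3733 and 3290 in sham TRAP (1.05 ± 0.16, adjusted p = 0.00298). Cox8b rose from 14271 and 15671 RPKM to 29515 and 29884 (0.99 ± 0.13, adjusted p = 0.00182). The liver form Cox6a1 rose from 710 and 720 RPKM to 1356 and 1453 (0.97 ± 0.14, adjusted p = 0.00258). The muscle form, at far higher RPKM, and the liver form of another subunit thus shifted by nearly the same factor. After banding the 5 largest rises were in Cox6c (1.29), Cox7c (1.24), Cox8a (1.13), Atp5j2 (1.03) and Cox8b (1.02), with adjusted p from 0.000393 to 0.00129. Atp5j2, the membrane subunit f of complex V, had 3680 and 4232 RPKM in sham input and 7893 and 7520 in sham TRAP.

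Both muscle and liver forms rose in CAG hearts, and the difference between the forms of a pair was not tested. Beside the rise of 1.06 in Cox7a1 and 0.99 in Cox8b after sham (0.94 and 1.02 after banding), Cox6a2 rose by 0.89 after sham and 0.77 after banding, Cox7a2 by 0.64 and 0.75, Cox8a by 0.82 and 1.13, and the ubiquitous subunit Cox4i1 by 0.61 and 0.51, each with an adjusted p under 0.05. In RPKM, Cox6a2 had 18038 and 17771 in sham input and 33957 and 32567 in sham TRAP. Cox7a2 had 2453 and 2834 in input and 4393 and 3820 in TRAP. In both genes each TRAP library lay above both inputs, as in 32.2% of all genes. Cox4i2, the isoform of subunit 4 known from lung and from cells exposed to low oxygen, was the complex IV gene that missed the threshold after sham, at -0.16 ± 0.15 (adjusted p = 0.41). Its level was 13.7 and 14.0 RPKM in sham input and 12.3 in both TRAP libraries. Cox7a2l, which takes part in joining complexes into supercomplexes, passed after sham (0.39, adjusted p = 0.00892) and not after banding (0.16, adjusted p = 0.15). Cox6b2, at only 7.35 to 12.4 RPKM in the sham libraries, passed in both (0.53 and 0.57).

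In complex III 4 of the 5 small subunits rose: Uqcrq by 0.83 and 0.80 after sham and banding, Uqcr10 by 0.76 and 0.59, Uqcr11 by 0.74 and 0.80, and the hinge protein Uqcrh by 0.66 and 0.74. Cytochrome c1 (Cyc1) rose by 0.70 and 0.57, and the Rieske iron-sulfur protein (Uqcrfs1) by 0.37 and 0.33. The core proteins Uqcrc1 and Uqcrc2 did not pass, at 0.20 (adjusted p = 0.0658) and 0.01 (adjusted p = 0.985) after sham. The remaining small subunit, Uqcrb, had 0.58 after sham and -0.60 after banding, with a standard error of 1.01. Cycs passed only after banding, at 0.69 (adjusted p = 0.0155) against 0.35 (adjusted p = 0.137) after sham. The difference between these values was not called by the interaction described below. Cycs had 289 and 313 RPKM in sham input and 377 and 389 in sham TRAP, whereas band TRAP held 559 and 384. Groups share 1 spread per gene, so this wide band pair enters the sham p-value too, which does not make the sham shift the less certain.

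In complex II 3 genes passed after sham and 2 after banding. Sdhb rose by 0.57 after sham and after banding, and the membrane anchor Sdhd by 0.70 and 0.64. The other anchor, Sdhc, rose by 0.38 after sham and had 0.20 (adjusted p = 0.11) after banding. Sdha, which carries the flavin, had 238 and 237 RPKM in sham input, with 218 and 222 in sham TRAP (-0.11 ± 0.13, adjusted p = 0.527). Without surgery it was 173 RPKM in input and 126 in TRAP, whereas after banding TRAP held 260 and 205 against 214 and 187 in input (0.20, adjusted p = 0.229) and the libraries overlapped.

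In complex V the catalytic pair had the lowest differences after sham. Atp5b, the beta subunit, had 1894 and 1985 RPKM in sham input and 1679 and 1648 in sham TRAP, a difference of -0.22 ± 0.09 with an adjusted p of 0.101. Atp5a1, the alpha subunit, had -0.04 ± 0.12 (adjusted p = 0.799). After banding the values were -0.04 for Atp5b and 0.20 for Atp5a1, neither called. Of the 9 catalytic and core subunits (Sdha, Sdhb, Cyc1, Uqcrfs1, Uqcrc1, Uqcrc2, Atp5a1, Atp5b and Atp5c1), 4 rose in each comparison. Under rescaling without the most abundant genes Atp5b was lower after sham (-0.35, adjusted p = 0.0195), and likewise under quantile normalization (-0.49, adjusted p = 0.0256).

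The other subunits of the catalytic head rose more. The gamma subunit Atp5c1 rose by 0.65 and 0.54 after sham and banding, and the epsilon subunit Atp5e by 0.79 and 0.80. The delta subunit Atp5d rose by 0.57 after sham and had 0.25 (adjusted p = 0.0935) after banding. In the stalk, Atp5o (the oligomycin sensitivity protein) rose by 0.69 and 0.59 and Atp5j by 0.51 and 0.71. Atp5h had 0.37 (adjusted p = 0.168) after sham and rose by 0.79 (adjusted p = 0.0166) after banding. Atp5f1 passed in neither, at 0.51 (adjusted p = 0.232) and 0.79 (adjusted p = 0.0793). In both genes the band TRAP libraries lay far apart, and this spread enters the sham p-values too. Atp5h had 2208 and 2350 RPKM in sham input and 2917 and 2988 in sham TRAP, against 4994 and 3129 in band TRAP. The genes for the c ring, which are 3 copies of nearly the same mature protein, moved little: Atp5g1, Atp5g2 and Atp5g3 had 0.28, 0.21 and 0.24 after sham, none called, and 0.41, 0.25 and 0.16 after banding, where the first and second passed at adjusted p of 0.0469 and 0.0426. Atp5l rose by 0.40 and 0.60, and Atp5l2, whose reads could be shared with the near-identical Atp5l, by 0.74 and 0.60. Among the least changed genes were also Atp5sl after banding (0.03) and Cox4nb (0.09 and 0.05), the row outside the complexes.

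Summed over each complex, the same shift was seen in RPKM. Complex IV summed to 89244 and 93967 RPKM in sham input and to 176574 and 172346 in sham TRAP, a ratio of means of 1.90. The ratio was 1.62 in complex III, 1.42 in complex V and 1.41 in complex II, and after banding 1.86, 1.60, 1.38 and 1.41 in the order IV, III, V, II. Without surgery, with 1 library on each side, the ratios were 1.91, 1.72, 1.81 and 1.30. Complex V was the one that moved most between these pairs, and Atp5k, at 16059 RPKM in input and 40214 in TRAP without surgery, held much of its sum.

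The genes with larger shifts mostly had short listed transcripts, though Cox6c was listed at 3038 bases. The median transcript length in the table was 927 bases for the 51 genes and 2604 for all genes tested. Across the 49 genes, Spearman's rho of the TRAP to input difference was -0.51 with length and 0.57 with mean level after sham, and -0.34 and 0.55 after banding, given as a description of genes that share libraries. Among the 24 tested genes up to 927 bases, 19 were higher after sham (79.2%, median 0.67), and among the 25 longer ones 14 (56%, median 0.39). Of other genes in the shorter range, 414 of 1310 were higher (31.6%, median 0.28), and of those with a mean of at least 100 RPKM, 192 of 316 (60.8%, median 0.49). In the longer range 1242 of 8248 other genes were higher (15.1%, median -0.07), and of those with a mean of at least 100 RPKM, 181 of 406 (44.6%, median 0.27). Short abundant genes of other kinds were thus also mostly higher in TRAP, and the part of length and level in the result was not tested. With the trend over length taken out, 25 of the 49 genes were higher after sham and 30 after banding, against 1589 and 2080 of all 11654 genes.

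**Figure D2:**
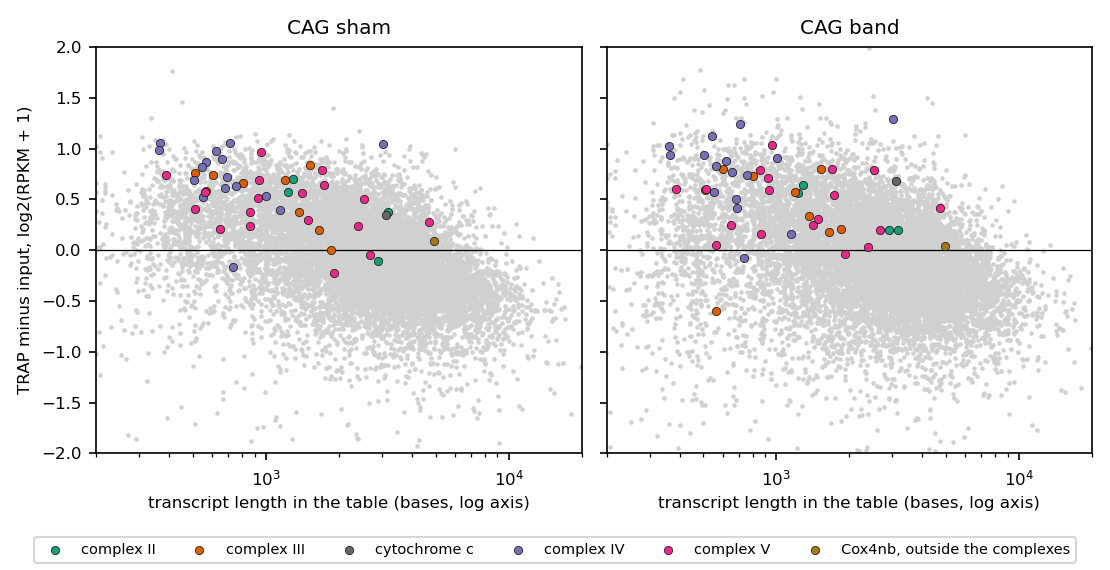
TRAP minus input on the log2(RPKM + 1) scale against transcript length (log axis) in CAG sham and CAG band hearts, for the 49 genes in colour by complex and all other genes tested in grey. Genes beyond 2 on the vertical axis lie outside the frame. The coloured points lie mostly above 0, with Spearman rho against length of -0.51 after sham and -0.34 after banding.

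Markers of several other cell types were lower in CAG TRAP. After sham 7 of 9 fibroblast markers, 6 of 7 tested macrophage and leukocyte markers, 5 of 9 smooth muscle and pericyte markers, 5 of 5 erythroid markers and 1 of 12 endothelial markers fell, and 0 of these rose. Their summed levels in sham input and TRAP were 305 to 309 and 138 to 148 RPKM for fibroblasts. For erythroid cells they were 2486 to 2555 and 204 to 206. The 8 macrophage and leukocyte markers present, tested or not, summed to 120 to 121 in input and 58.4 to 60.0 in TRAP. The endothelial sum did not fall, at 908 to 981 in input and 1021 to 1022 in TRAP, though 8 of the 12 markers were below 0 (median -0.08). Of 4 tested adipocyte markers 1 was higher and 1 lower. The 6 adipocyte markers present, tested or not, summed to 73.5 to 73.6 in input and 96.2 to 97.7 in TRAP. Of 11 cardiomyocyte markers 3 rose and 3 fell, and their sum went from 72875 to 72879 up to 87110 to 90466. After banding the sums were 275 to 299 in input and 103 to 163 in TRAP for fibroblasts, and 77468 to 77642 and 89670 to 93235 for cardiomyocytes. The endothelial sum was 1099 and 958 in band input, and the band TRAP libraries lay far apart, at 1735 and 899. The part of these cells in the result was not tested.

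Subunits made inside mitochondria went the other way. The 6 mitochondrially encoded partners of complexes III, IV and V (mt-Cytb, mt-Co1, mt-Co2, mt-Co3, mt-Atp6 and mt-Atp8) were all lower in TRAP, with medians of -6.61 after sham and -7.65 after banding. They are translated by mitochondrial ribosomes, which the tag does not mark. Mitochondrially encoded genes took 13.7% to 15.9% of the reads of CAG input and 0.0259% to 0.293% of CAG TRAP, and RPKM divides by all reads of a library, these included. Rescaled without these genes, haemoglobin and the 50 most abundant genes, 33 of the 49 nuclear genes were higher and 1 lower after sham, and 28 and 0 after banding. Of all 11654 genes, 1255 were then higher and 3813 lower after sham, and 1326 and 4150 after banding.

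Genes that assemble the complexes or control their transcription were taken from lists of their own. Of 17 tested assembly factors of complex IV, 10 rose and 1 fell after sham, and the same counts were found after banding. Cox17, a copper chaperone, rose by 0.93 and 1.12 from 423 RPKM in sham input and 360 in band input. Cox11, also needed for copper delivery, rose by 0.97 and 1.01, and Cox16, Cox18, Cox19, Surf1, Ccdc56, Fastkd3, Cmc1 and Higd2a by 0.36 to 0.73 after sham. Lrpprc, which stabilises mitochondrial messengers, fell by 0.60 on the log2 scale after sham and fell by 0.45 after banding. Assembly of complex IV thus had rises in the same direction as its subunits, from genes at levels between 0.85 RPKM (Fastkd3) and 423 RPKM (Cox17 and Higd2a).

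For complex V, 4 of 6 genes rose in both comparisons: the assembly factors Atpaf2 (0.41 and 0.53) and Tmem70 (0.90 and 0.81), the inhibitor Atpif1 (0.53 and 0.83), and 2010107E04Rik (0.53 and 0.60). For complex II, Acn9 rose (0.46 and 0.69), 1 of 3. For complex III, the chaperone Bcs1l rose (0.47 and 0.38), 1 of 5, and Ttc19 fell after banding (-0.50, adjusted p = 0.0182). Of 9 regulators of transcription, Esrra, a nuclear receptor that drives mitochondrial genes, rose (0.45 and 0.41). The coactivator Ppargc1b fell (-0.99 and -1.01), and its relative Pprc1 fell after sham (-0.50). Nrf1 itself was at 1.86 RPKM in sham input and 1.65 in TRAP (-0.11, adjusted p = 0.377).

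Between band and sham the members differed little in input RNA. By limma 0 of 49 were called in either direction, where 2.44% of all genes were higher and 1.65% lower. At an unadjusted p under 0.05, 1 was higher and 2 were lower, with 1130 higher and 1123 lower among all 11654 genes. The median difference, band minus sham, was -0.06, and 15 of 49 were above 0. Summed levels were 0.927 times sham in complex II, 0.925 in complex III, 0.898 in complex IV and 0.952 in complex V. The smallest changes were in Atp5h, Cox4i1 and Cox7b, each at 0.00 with standard errors of 0.20, 0.08 and 0.14.

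The widest differences in input were in Uqcrb (0.54 ± 1.01, adjusted p = 0.841) and Cox6b2. The latter stood at 7.35 and 9.01 RPKM after sham and 5.39 and 5.17 after banding (-0.54, unadjusted p = 0.00258, adjusted p = 0.0572). It passed when genes were filtered at 5 RPKM (adjusted p = 0.0452) and with the length trend removed (adjusted p = 0.043). Cox7a1 stood at 28832 and 28775 RPKM after sham and 24419 and 21773 after banding (-0.32, unadjusted p = 0.0297, adjusted p = 0.198). For both genes the band libraries lay below the sham libraries, as they did in 31.1% of all genes, with a further 28.7% above.

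In TRAP RNA 0 genes were higher after banding by limma and 1 was lower, against 2.21% and 1.56% of all genes, and at an unadjusted p under 0.05, 4 were higher and 7 lower, with 1161 and 1134 among all genes. The gene was Atp5k, subunit e of complex V, which helps to pair the enzyme into dimers. Sham TRAP held 20615 and 19717 RPKM of it and band TRAP 10886 and 13922, a difference of -0.71 ± 0.13 (adjusted p = 0.0387). In input RNA it was 14222 and 12842 after sham and 11260 and 12471 after banding (-0.19), so that the band libraries of TRAP lay below both sham libraries, as in 22.4% of all genes, and near the level of the inputs. The call was lost with no filter on low values, under quantile normalization, with the replicate block and without either sham TRAP library, with an adjusted p up to 0.227 over 14 alternatives. Without the first band TRAP library 1 gene was higher and 4 lower, and without the second 6 were higher and 10 lower. Calls over the whole table rose as well, to 573 higher and 1088 lower without the first and 1085 and 882 without the second, from 257 and 182.

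**Figure D3:**
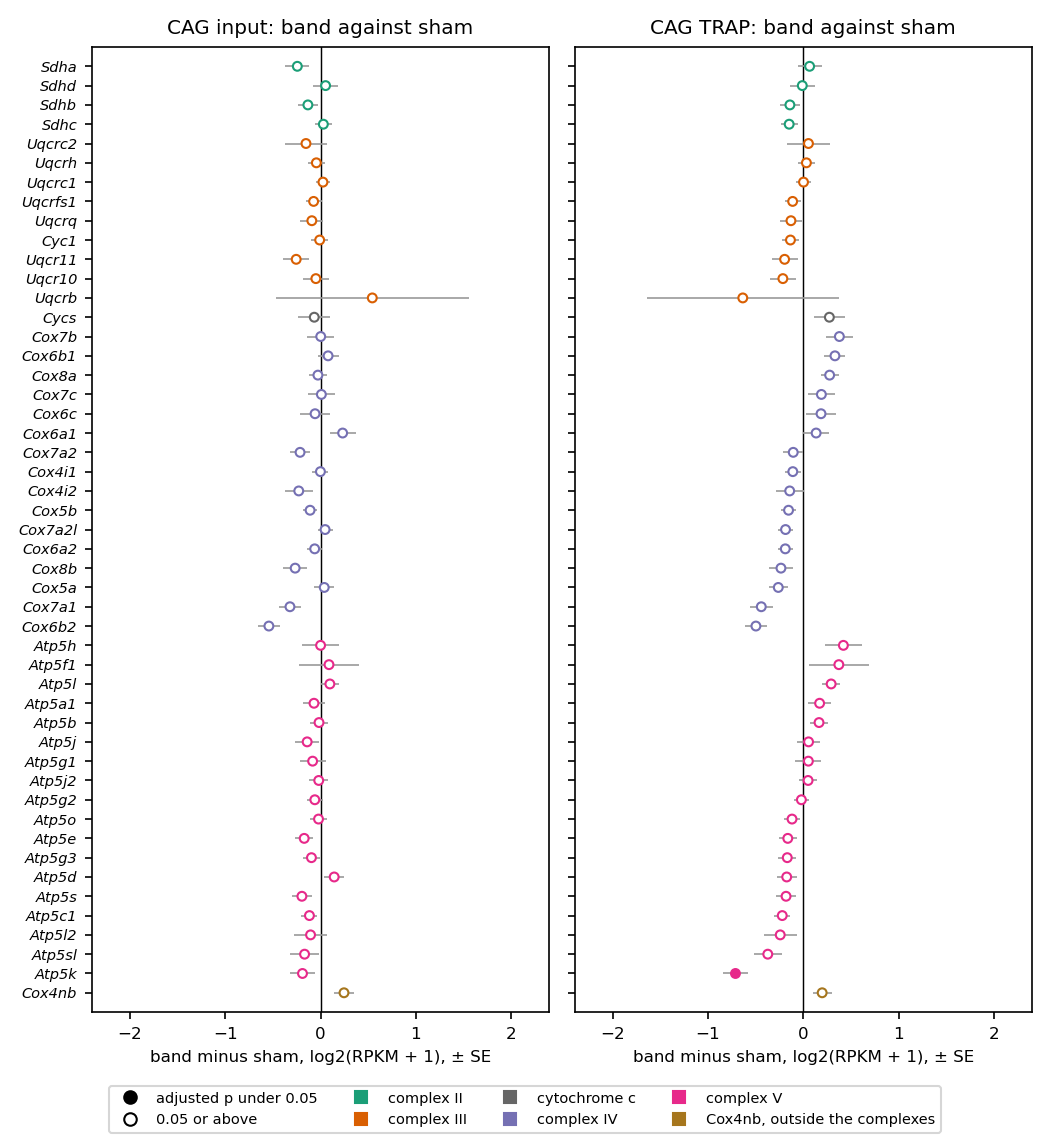
Difference between band and sham on the log2(RPKM + 1) scale in CAG input (left) and CAG TRAP (right), as limma estimates with standard errors from 2 against 2 libraries, for the 49 genes in the order of the TRAP values within each complex. The single filled symbol, with an adjusted p under 0.05, is Atp5k in TRAP.

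The band TRAP libraries were the least alike. Between the libraries of a pair, the members differed by a median of 0.22 (absolute log2) in band TRAP and 0.0603 to 0.0731 in the other pairs. Uqcrb, a small subunit of complex III, had 535 RPKM in one band TRAP library and 45.2 in the other, Atp5f1, the stalk subunit b, 645 and 301, and Uqcrc2 415 and 248. Atp5h, the stalk subunit d, had 4994 and 3129. Uqcrb also differed between the sham TRAP libraries, at 161 and 368, and stood at 298 in CAG input and 38.4 in CAG TRAP without surgery. Its levels in these libraries do not follow the groups, and its direction is therefore uncertain.

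Other wide differences in TRAP after banding did not pass, that of Uqcrb included (-0.63, adjusted p = 0.797). Cox6b2 had -0.50 (adjusted p = 0.072) and Cox7a1 -0.44 (adjusted p = 0.0959), both also below 0 in input. On the other side, Atp5h had 0.42 (adjusted p = 0.297) and Cox7b 0.38 (adjusted p = 0.194). Uqcrc1, Sdhd and Atp5g2 changed least, at 0.00, -0.01 and -0.02. The interaction, which asks whether banding changed the TRAP to input difference, called 0 of the 49 and 0% of all genes in either direction by limma. At an unadjusted p under 0.05, 0 members were higher and 1 lower, with 230 and 327 of all genes. The member was Atp5k (-0.52, unadjusted p = 0.0284), and Sdhb, Atp5e and Atp5s lay closest to 0, at -0.0074, 0.0089 and 0.015. Among the assembly factors 1 gene was higher after banding in both fractions: Cox19, at 29.9 RPKM in sham and 47.1 in band input (0.64, adjusted p = 0.0169), and at 43.0 and 71.3 in TRAP (0.71, adjusted p = 0.011).

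Without surgery, with 1 CAG library on each side and so no replicate check, 7 genes were at least 2-fold higher in TRAP and 1 at least 2-fold lower, against 0.961% and 7.53% of all genes, on the log2(RPKM + 1) scale. The highest were Atp5k (1.32), Cox6b2 (1.18), Cox7a1 (1.16), Cox8b (1.15) and Atp5e (1.14). The gene below was Uqcrb (-2.93), followed by Uqcrc2 (-0.57), Atp5b (-0.56), Atp5a1 (-0.48) and Sdha (-0.46). Of the 9 catalytic and core genes listed above, Uqcrc2, Atp5b, Atp5a1 and Sdha were thus low without surgery, whereas Sdhb (0.50), Cyc1 (0.49) and Atp5c1 (0.37) were above 0.

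Tie2 TRAP turned most of the set round. Against Tie2 input, 2 genes were at least 2-fold higher and 42 at least 2-fold lower, where 31.5% of all genes were higher and 13.1% lower. The median log2 difference was -2.35 for the members and 0.48 for all genes. The summed level in TRAP was 18.3% of that in input for complex II, 17.1% for complex III, 15.5% for complex IV and 14.2% for complex V. These are 1 library each, and in such bulk RNA fewer cells of a type and less RNA per cell cannot be told apart.

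**Figure D4:**
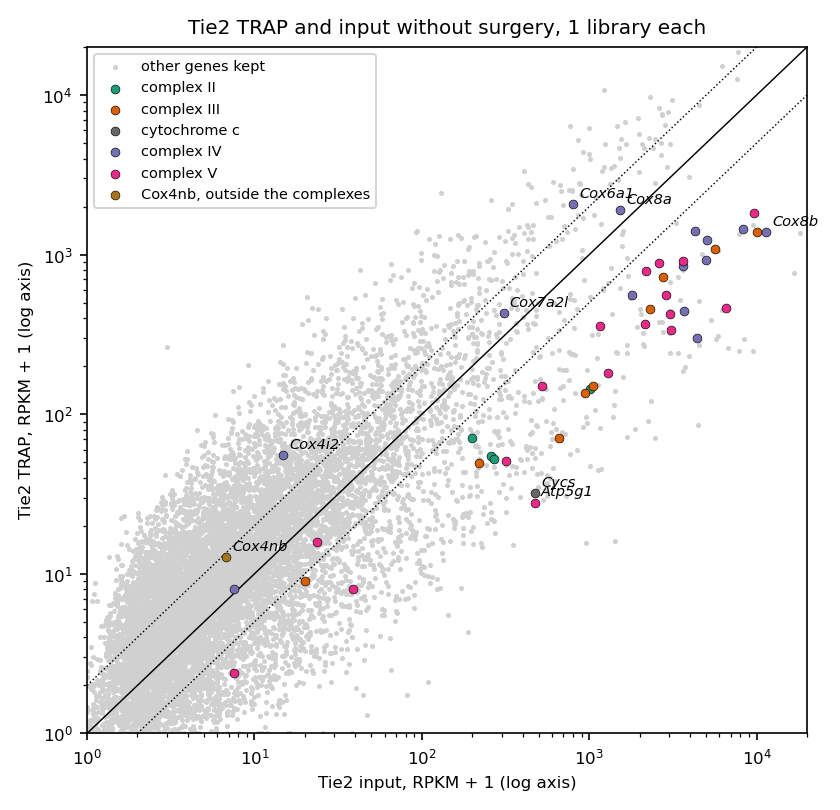
RPKM + 1 in Tie2 TRAP against Tie2 input without surgery (both axes log), with the 49 genes in colour and other genes tested in grey. The solid line marks equality and the dotted lines 2-fold. Most coloured points lie below the lower dotted line, and Cox6a1 and Cox4i2 lie above the upper one.

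Cardiomyocyte markers fell in the same library. All 11 stood at 2.20% (Myl2) to 21.2% (Pln) of input, with Tnnt2 at 7.53% and Myh6 at 5.79%, none at 0, and summed to 98944 RPKM in input and 4457 in TRAP. The 12 endothelial markers stood at 445% (Erg) to 1971% (Cav1) of input and summed to 1391 and 12906 RPKM. The 7 tested macrophage and leukocyte markers were also at least 2-fold higher, and the 8 present, tested or not, summed to 110 and 936. All 9 fibroblast markers were above input, 4 of them at least 2-fold, and summed to 293 and 805. Of 5 erythroid markers 4 were at least 2-fold lower, and the sum went from 2565 to 611. Tie2 input differed from the CAG inputs in its share of mitochondrially encoded reads, 3.17%, and its 9 smooth muscle and pericyte markers summed to 339 RPKM, where the CAG inputs had 198 to 243. The part of these cells in the levels of the respiratory genes was not tested.

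The members fell to different degrees. Under 10% of input stood 7 genes: Cox6a2 (3.81%), Cox7a1 (5.69%), Atp5g1 (5.70%), Cycs (6.53%), Atp5k (6.56%), Cox5a (6.86%) and Atp5g3 (7.05%). The muscle forms Cox6a2 and Cox7a1 had the lowest shares of all 49. At 10% to 50% stood 35 genes, among them Sdhb (14.1%), Cyc1 (14.2%), Cox4i1 (17.5%) and Atp5l (18.8%). Atp5sl stood at 66.1%.

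Above 100% of input were 6 genes, 5 of them in complex IV, and 7710 of all 11654 genes. Cox4i2 went from 13.8 to 54.5 RPKM (396%), and Cox6a1 from 796 to 2076 (261%). Cox7a2l, at 307 and 429 RPKM, reached 140%, Cox8a, at 1528 and 1894, 124%, and Cox6b2, at 6.50 and 7.03, 108%. The row outside the complexes, Cox4nb, stood at 202%. Cox8a and Cox6b2 lay below the median of all genes, 0.48 on the log2 scale, and Cox7a2l stood level with it. The value of Cox8a depends on the scale, since its log2 difference of 0.31 was -0.06 after rescaling and -0.18 with the length trend removed. Each of these alternatives left 4 genes above input in place of 6.

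The muscle forms went from 27054 RPKM in Tie2 input to 1032 in TRAP for Cox6a2, from 21337 to 1215 for Cox7a1 and from 11326 to 1376 for Cox8b. Tie2 TRAP therefore held complex IV messengers in another isoform mix. Cox6a2 made 94.2% to 97.1% of the summed RPKM of Cox6a2 and Cox6a1 in the other 11 libraries and 33.2% in Tie2 TRAP. Cox8b made 88.1% to 93.4% of the Cox8 pair elsewhere and 42.1% there, and Cox7a1 85.5% to 93.9% of the Cox7a pair and 59.0%. In the last pair the muscle form was the larger per length, with Cox7a2 at 23.3% of input. By reads, not divided by length, the shares in Tie2 TRAP were 34.5% for Cox6a2, 32.6% for Cox8b and 41.0% for Cox7a1, so that the larger form of the Cox7a pair turns with the scale. Cox4i2 made 0.114% to 0.234% of the Cox4i pair elsewhere and 3.63% in Tie2 TRAP, with Cox4i1 still the main form at 1449 RPKM.

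**Figure D5:**
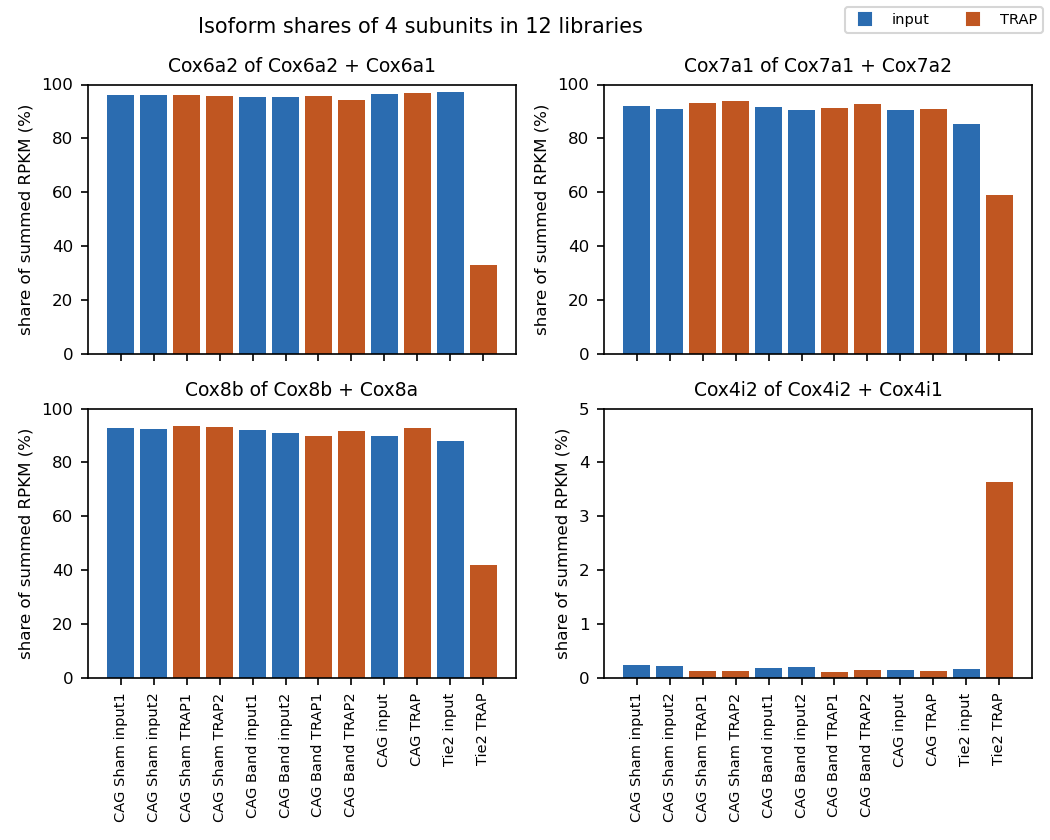
Share of the first-named isoform in the summed RPKM of its pair, in percent, in each of the 12 libraries, with input in blue and TRAP in orange. Cox6a2, Cox7a1 and Cox8b are lowest in Tie2 TRAP, at 33.2%, 59.0% and 42.1%, and Cox4i2, on an axis to 5%, is highest there at 3.63%.

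The c subunit of complex V, whose 3 genes encode the same ring protein with different import sequences, also changed its mix. Atp5g3 made 62.2% to 71.3% of their summed RPKM in the other 11 libraries and 36.3% in Tie2 TRAP. Atp5g2 made 23.0% to 27.3% elsewhere and 61.6% there, and Atp5g1 5.13% to 10.5% and 2.11%. These shares depend on the listed lengths. In CAG sham input Atp5g1 made 7.92% by RPKM and 33.5% by reads. Atp5g2 fell least of the 3, to 36.1% of input. Shares by library were steady in CAG hearts, where after sham Cox6a2 made 96.2% ± 0.0726 (SD, n = 2) in input and 95.9% ± 0.304 in TRAP.

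Set against CAG TRAP without surgery, Tie2 TRAP had 1 gene at least 2-fold higher and 43 at least 2-fold lower, where 44.4% of all genes were higher and 11.3% lower. The gene was Cox4i2, at 434% of the CAG value. The next were Cox4nb (203%), Cox7a2l (166%) and Cox6a1 (157%), followed by Cox8a at 90.4%. The lowest were Cox7a1 (2.19%), Cox6a2 (2.67%), Atp5k (3.64%), Atp5g1 (4.14%) and Cox8b (5.26%). The muscle forms of subunits 6a, 7a and 8 were thus all among the 5 genes with the lowest shares. Of the liver forms, Cox7a2 stood at 15.2%. Cox6a1 (0.65 on the log2 scale) and Cox8a (-0.15) were higher, but below the median of all genes (0.85). Their place depends on the scale. Rescaled, they had 0.20 and -0.59, against a median of 0.50. Under quantile normalization they had 1.14 and 0.45, against a median of 0.08.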

How the data were processed

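Polyadenylated RNA of mouse heart input and TRAP fractions was sequenced, and the library protocol in the labels marks no strand, so reads of overlapping antisense genes cannot be told apart. The authors deposited 1 table of RPKM values for 34306 genes in 12 libraries. CASAVA 1.8.2, TopHat 1.4, HTSeq 0.5.3 and the build NCBIM37 are named per the submitters' processing notes. The titles give more than 1 sequenced library for each column of the table, and the sources used here do not give how these were joined. An earlier deposit of 29 of the 53 samples was not analysed here, and 0 columns belonged to other samples. All 233410 positive values were whole reads within 0.02, which gave the depths of 26568988 to 94878619 reads.

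Values were taken as log2(RPKM + 1), which understates changes of low genes. The filter asked for at least 1 RPKM in 2 or more libraries and left 11654 genes. They were fitted in limma 3.58.1 (R 4.3.3) with a mean for each of the groups, a trend of the variance over level, and Benjamini-Hochberg adjustment over all genes kept. Tests were two-sided and called at an adjusted p under 0.05. Groups with 1 library add nothing to the spread, and for these a difference of 2-fold was counted. The script was tested on simulated data. Genes were named as the isoform pairs, the called genes with the largest changes (at most 5 in each direction), the 3 with the smallest, the 5 highest and 5 lowest in comparisons of single libraries, the highest and lowest of each complex, called genes of other pathway lists, and genes below the filter. The members and lists were chosen with earlier results of these data known. Alternatives were other pseudocounts, filters, scalings, a length correction, no trend, fewer libraries and a replicate block. Promoter windows came from RefSeq (GRCm38.p6), a build other than that of the table, and were matched by symbol.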

Additional observations from a re-analysis of the deposited data

Results flagged for a closer look

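Without surgery, 35 of the 49 tested genes were higher in TRAP than in input in CAG hearts and lower in Tie2 hearts. Of all 11654 genes, 3673 were higher in CAG TRAP and 3936 lower in Tie2 TRAP. How many of them did both was not counted. With 1 library on each side the difference between the lines was not tested. Among the isoform pairs of complex IV, the log2 difference between TRAP and input in Tie2 hearts was -4.71 for Cox6a2, -4.13 for Cox7a1, -3.04 for Cox8b, -2.51 for Cox4i1 and -2.10 for Cox7a2. The same genes had 0.82, 1.16, 1.15, 0.53 and 1.09 in CAG hearts without surgery.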

How the results depend on the processing

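Libraries with the same replicate number showed no clear shared deviation across groups. The correlation of their deviations ran from -0.434 (sham TRAP with band TRAP) to 0.11. This cannot show whether libraries of the same number came from the same RNA. The negative value means that TRAP libraries of unlike number deviated alike, which a block on the number does not describe. With the replicate block, 33 genes were higher in TRAP after sham and 31 after banding, against 1597 and 1755 of all 11031 genes in that fit. Between band and sham 0 were called in input, 0 higher and 0 lower in TRAP, and 0 in the interaction. Single-library comparisons have no test, and with 2 libraries a group the precision is set by their number. Leaving out 1 library leaves an arm with 1, which is assumed to vary like the other groups. Without Cox4nb, Atp5l2, Atp5s, Atp5sl and Uqcrb, a choice made after seeing the data, 32 of 44 genes were higher after sham and 32 after banding. Of the alternatives for counts, sums and shares, 163 stayed near the value reported and 32 moved. For the genes named by rule in each comparison 938 stayed, 77 moved, 62 changed sign, 5 passed and 7 lost the threshold, and the cause was not tested.

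Among counts, 1 gene was lower in TRAP after sham with rescaling and 1 under quantile normalization. Banding lowered 1 gene in input with a filter of 5 RPKM and 1 with the length trend removed. In TRAP, 1 gene was higher after banding under quantile normalization (Atp5l, 0.53), and 0 were lower with no filter, with quantile normalization and with the block. Without surgery, 3 genes were 2-fold higher in CAG TRAP under quantile normalization. In Tie2 TRAP against input 1 gene was 2-fold higher with the length trend removed. Against CAG TRAP 2 genes were, with a pseudocount of 0.1 and with quantile normalization. Rescaled, the ratio of summed levels after sham was 1.29 in complex II, 1.49 in III, 1.75 in IV and 1.31 in V. By reads in place of RPKM the shares in CAG sham input were 96.4% for Cox6a2, 84.0% for Cox7a1, 89.2% for Cox8b, 0.251% for Cox4i2, 33.5% for Atp5g1, 14.6% for Atp5g2 and 51.9% for Atp5g3.

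Sign changes were nearly all of values close to 0 (log2). With rescaling they were, for TRAP against input, Uqcrc2 (-0.12) and Cox4nb (-0.0071) after sham and Atp5sl (-0.11) and Cox4nb (-0.085) after banding. For banding they were Atp5h in input (-0.00082) and Uqcrc1 in TRAP (-0.030), for the interaction Atp5e (-0.023) and Atp5s (-0.012), and for Tie2 TRAP against input Cox8a (-0.055). With quantile normalization they were Uqcrc2 after sham (-0.25), Cox7b in input (-0.077), Uqcrc1 in TRAP (-0.012), Sdhb (0.013), Atp5e (-0.063), Cox6a2 (0.22) and Cox7a1 (0.28) in the interaction, and Cox4nb (-0.047) and Cox8a (0.45) in Tie2 against CAG TRAP. Under it Cox7a1 had 0 after sham and 0.28 after banding (limma adjusted p = 0.215). Cox7a1 and Cox6a2 ranked 1 and 2 by mean RPKM, and the method gives the same rank the same value. It is therefore a poor test of the level of either gene. With the length trend removed they were Uqcrc2 (-0.052) and Atp5a1 (0.021) after sham, Atp5h (-0.013) and Cox7b (-0.014) in input, Atp5g2 in TRAP (0.024), Sdhb in the interaction (0.016), Cox8a in Tie2 (-0.18) and Cox4nb in Tie2 against CAG TRAP (-0.10).

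Leaving out 1 library at a time gave, for banding in TRAP, 0 to 6 genes higher and 0 to 10 lower, for TRAP against input after banding 0 to 1 lower, and for the interaction 0 to 1 higher. Called genes higher in TRAP ranged from 23 to 28 after sham and from 25 to 37 after banding. The log2 differences that changed sign ranged, for TRAP against input, from -0.066 to 0.079 in Uqcrc2 after sham, and after banding from -0.20 to 0.27 in Atp5sl, -0.033 to 0.13 in Cox4nb, -0.14 to 0.061 in Atp5b and -0.31 to 0.16 in Cox4i2. For banding in input the ranges were -0.045 to 0.045 in Atp5h, -0.11 to 0.12 in Cox7b, -0.021 to 0.019 in Cox4i1 and -0.14 to 0.087 in Cox8a. In TRAP they were -0.029 to 0.034 in Uqcrc1, -0.069 to 0.029 in Atp5g2, -0.20 to 0.18 in Sdhd, -0.37 to 0.090 in Cox4i2 and -0.080 to 0.35 in Cox6a1. In the interaction they were -0.14 to 0.13 in Sdhb, -0.10 to 0.12 in Atp5e, -0.080 to 0.11 in Atp5s, -0.26 to 0.024 in Cox7a1, -0.15 to 0.32 in Cox4i2, -0.31 to 0.12 in Cox6a1 and -0.12 to 0.19 in Cox8b.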
